A study of Mus musculus with 9 samples.

Results

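Motile cilia are built from a common set of structural proteins, and 54 of the 53342 genes in the deposited table of mouse lung RNA encode members of 4 such protein families. They were chosen by name, as the protein-coding genes (21950 in the table) whose symbol begins with Dnah, Dnai, Cfap, Rsph or Tekt followed by a digit. Earlier results of these data were known when that rule was set. The rule found 26 Cfap genes, 15 Dnah genes, 8 Rsph genes and 5 Tekt genes. It found no Dnai gene, because the annotation of the table still carries the older symbols Dnaic1, Dnaic2, Wdr63 and Wdr78 for the axonemal dynein intermediate chains, whose values are given after those of the members. Of the 54 members, 53 had enough counts to be tested. The exception was Rsph6a, a paralogue of Rsph4a known from testis, which was close to 0 counts in every library.

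The RNA came from lung of C57BL/6 mice (titled WT in the normoxia and hypoxia groups and PTH in the treated one) and was converted to poly(A)-selected, directional libraries in 3 groups of 3. The normoxia group (replicates 2, 3 and 5) received neither hypoxia nor hormone according to its labels. The hypoxia group (replicates 1, 2 and 5) spent 3 weeks at 10% oxygen, a standard model of pulmonary hypertension, and the third group (replicates 3, 4 and 5) had the same exposure together with residues 1 to 34 of parathyroid hormone (PTH) at 40 µg/kg per day. A saline-injected sham group is mentioned without saying which samples belong to it, the age of the mice is not given, and nothing ties each sample to an animal of its own, so that the p-values measure the spread between samples. Lung tissue holds airways, alveoli, vessels and attached tissue together, and in such bulk RNA fewer ciliated cells and less ciliary RNA per cell cannot be told apart.

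The motile cilia of the lung sit on the multiciliated cells of the airway lining and carry mucus out of the airways. Their core, the axoneme, is a ring of microtubule doublets around a central pair. Dynein arms on the doublets supply the force, radial spokes and the central apparatus regulate it, and filaments and inner proteins such as the tektins hold the doublets together. The same families build the sperm tail, and some of their members are known mainly from testis.

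Levels per length were read from the deposited values in TPM, a transcript abundance scaled by gene length and depth. Of the 54 members, 45 were above 1 TPM in all 9 libraries. Rsph1, a protein of the radial spoke head, had the highest mean of any member at 64.4 TPM, with single libraries from 39.0 to 91.7 TPM. The next were Rsph3b at 41.1 TPM and Rsph3a at 36.8 TPM, both encoding spoke stalk proteins, and Cfap36 at 33.3 TPM and Cfap20 at 31.5 TPM. The dynein heavy chains were lower per length, led by Dnah6 at 9.10 TPM and Dnah5 at 5.74 TPM. Cfap61, Dnah7a, Dnah7b, Dnah7c, Dnah8, Dnah14, Dnah17, Rsph6a and Tekt3 were at or under 1 TPM, the floor of the deposited values, in at least 1 library. Rsph3a and Rsph3b, and likewise Dnah7a, Dnah7b and Dnah7c, are near-identical copies, so that the split of reads within each set is uncertain.

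**Figure D1:**
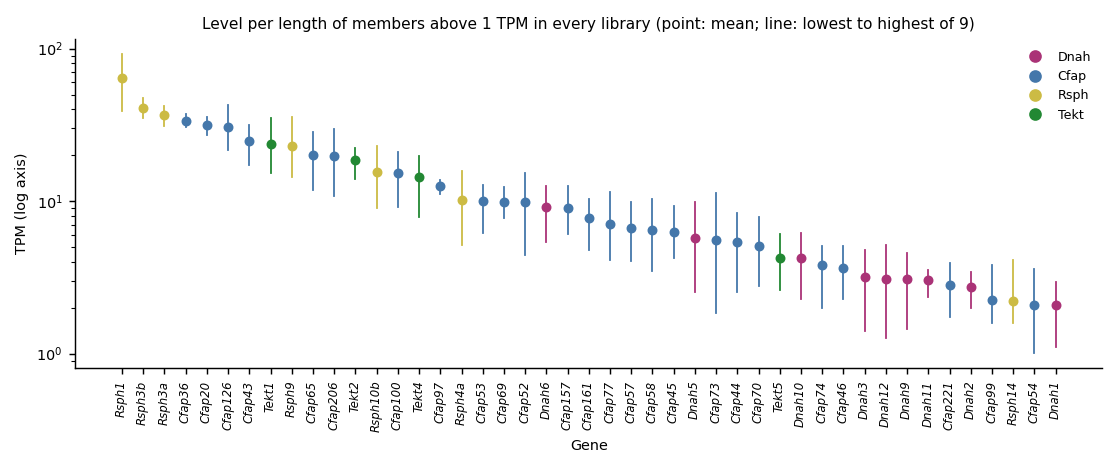
Deposited level per length, in TPM on a log axis, of the 45 members above 1 TPM in every library, ordered by mean. Points are means of 9 libraries and lines run from the lowest to the highest library. The radial spoke gene Rsph1 stands first at 64.4 TPM, and the dynein heavy chains lie in the lower part, from 9.10 TPM for Dnah6 to 2.07 TPM for Dnah1.

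Counts scaled to library size (CPM) were used to compare libraries, and edgeR's quasi-likelihood F test with Benjamini-Hochberg adjustment over all 19640 genes tested was used to compare groups. A gene was called at an adjusted p under 0.05 by that test, and calls by DESeq2's Wald test, the alternative, are named as such. Most cilium genes had their lowest mean in the lungs given PTH (48 of 53, where 37.1% of all genes had it there), but the number that passed an adjusted test depended on the tool. Against normoxia, 51 of the 53 tested members had a log2 fold change below 0, with a median of -0.71 (0.61 times the normoxic level), and 1 member, Cfap161, was called lower, whereas DESeq2 called 27 members lower among 1417 genes. Over all 19640 genes tested, edgeR called 341 (1.74%) in that comparison, of which 92 were lower and 249 higher. The 1417 genes that DESeq2 called there likewise hold both directions. Against hypoxia, 49 of 53 were below 0 with a median of -0.57 (0.673 times the hypoxic level), and no member was called, nor any gene (0% of those tested, with 1828 genes at an unadjusted p under 0.05; DESeq2's Wald test called 156 genes, among them 4 members). Hypoxia against normoxia gave a median of -0.09 over the members, and no member was called by either tool, where edgeR called 0.57% of all genes and DESeq2 791 genes. None of the members had an unadjusted p under 0.05 there, which 2321 of the 19640 genes had. The median over all genes tested was 0 for hypoxia against normoxia and -0.01 for both comparisons of PTH.

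Because few genes passed the adjusted test, the members are also described by 2 weaker counts, each beside the share of all genes. An unadjusted p under 0.05 with a lower level under PTH was reached by 30 of 53 members against hypoxia, where 5.07% of all genes reached it, and by 38 of 53 against normoxia, where 8.63% did. No member reached it in the higher direction, which 832 genes did against hypoxia and 1683 against normoxia. The 3 PTH libraries all lay below the 3 hypoxia libraries in 28 members (7.29% of all genes) and below the 3 normoxia libraries in 36 members (11.4% of all genes). The 3 hypoxia libraries all lay below the normoxia libraries in 2 members, Dnah7b and Dnah17 (8.57% of all genes). Both comparisons of PTH use the same 3 PTH libraries, so that their counts are not independent of each other.

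**Figure D2:**
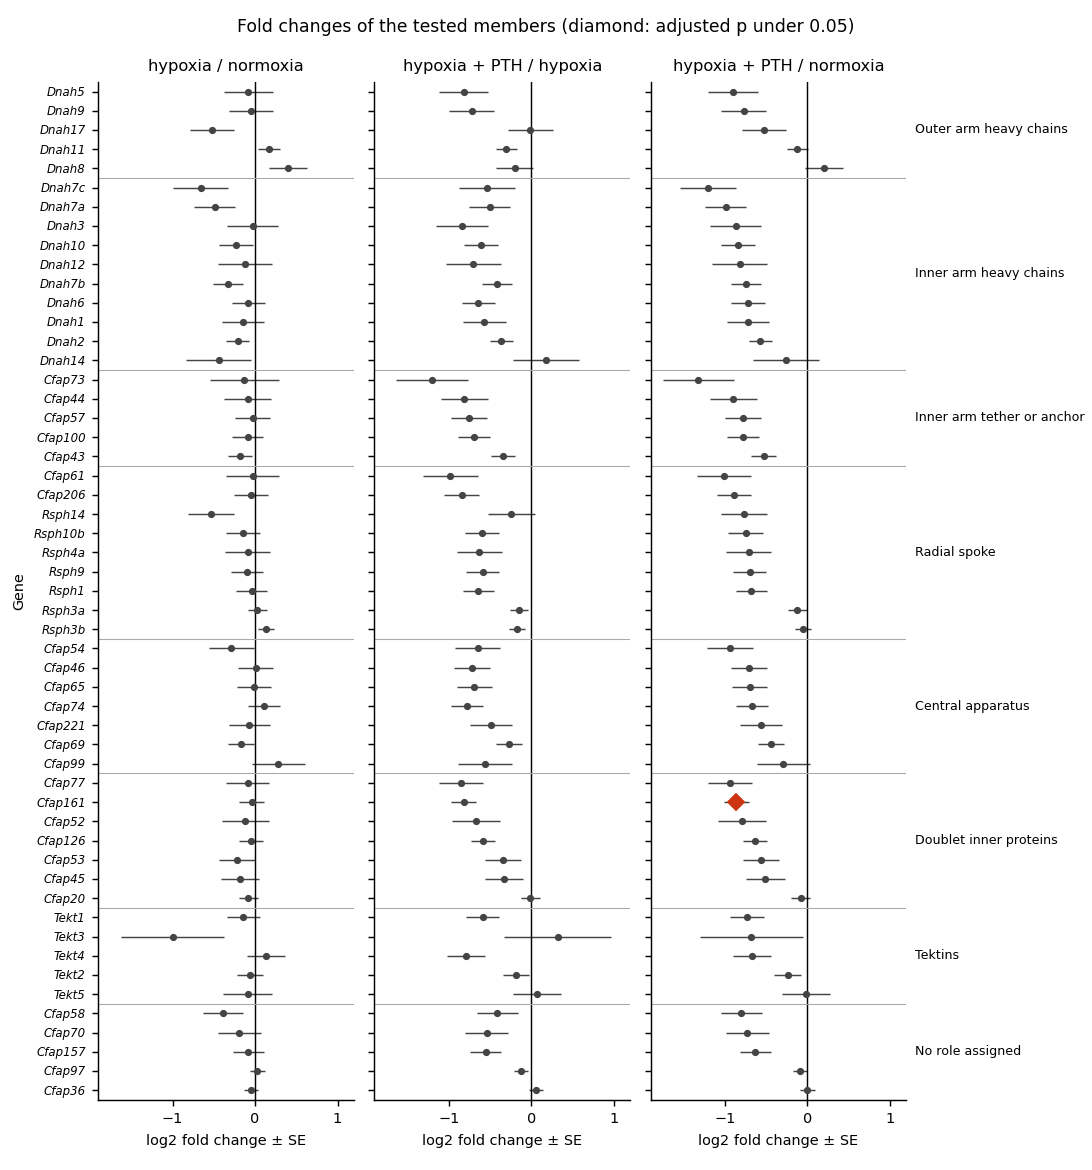
Log2 fold change (point) and standard error (line) of the 53 tested members in the 3 comparisons, grouped by role and ordered by the change against normoxia. Against normoxia 51 of 53 points lie left of 0 and the diamond marks Cfap161, the only member with an adjusted p under 0.05 in edgeR's test. Points of hypoxia against normoxia lie around their median of -0.09.

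Cfap161, a protein on the inside of the doublet microtubules, was the member called. It had 12.3, 8.96 and 10.8 CPM in normoxia (replicates 2, 3 and 5), 10.5, 9.42 and 11.2 CPM in hypoxia (replicates 1, 2 and 5) and 5.58, 6.61 and 5.44 CPM under PTH (replicates 3, 4 and 5). The 3 PTH libraries were below every other library, while normoxia and hypoxia overlapped. Its log2 fold change was -0.86 (SE 0.152, adjusted p = 0.0267) against normoxia and -0.82 (SE 0.152, adjusted p = 0.36) against hypoxia. Leaving out normoxia replicate 2 (adjusted p = 0.0859), normoxia replicate 5 (0.0544), PTH replicate 3 (0.0612) or PTH replicate 5 (0.106) ended the call against normoxia, as did a fit of only the 6 libraries compared (0.0623), with log2 fold changes from -0.86 to -0.74 in these fits.

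The 250 bases before the RefSeq start of Cfap161 are shown because it was the member called. The sequence is that of RefSeq on GRCm38.p6, chr7:83794840-83795089, on the minus strand and written 5′ to 3′ towards the gene, which itself spans chr7:83774101-83794880 in the deposited mm10 table. The starts differ, so that the last bases shown, with the match nearest to the gene, lie inside the gene as that table annotates it. Capitals mark matches to GTTGCC on either strand (GGCAAC on the strand shown), the core bound by the RFX factors, which are known regulators of ciliary genes.
Cfap161: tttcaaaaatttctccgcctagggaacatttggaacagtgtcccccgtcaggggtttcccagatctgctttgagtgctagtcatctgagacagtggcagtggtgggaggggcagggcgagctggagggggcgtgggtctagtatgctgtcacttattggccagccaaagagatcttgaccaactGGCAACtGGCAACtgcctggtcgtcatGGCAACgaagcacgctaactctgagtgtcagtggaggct

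Among the other proteins of the doublet interior, Cfap126 (also known as flattop) had 28.3, 19.7 and 19.8 CPM in normoxia, 19.7, 23.1 and 22.8 CPM in hypoxia and 14.8, 15.2 and 13.7 CPM under PTH, in the replicate order given above. The PTH libraries were again below the other 6. Cfap126 had a log2 fold change of -0.63 (SE 0.146, adjusted p = 0.064) against normoxia and -0.58 (adjusted p = 0.426) against hypoxia. All 7 doublet inner protein genes were below 0 in both comparisons of PTH, from -0.94 to -0.08 against normoxia, and Cfap161 was the one called by edgeR, while DESeq2 called Cfap77, Cfap126 and Cfap161 against normoxia and the latter pair against hypoxia. Cfap20, which also occurs outside motile cilia, was nearest to 0, with 58.3, 49.7 and 49.2 CPM in normoxia, 46.4, 46.1 and 56.5 CPM in hypoxia and 52.4, 52.7 and 43.1 CPM under PTH. Its 3 groups overlapped.

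The 5 outer arm heavy chains, the motors that set beat frequency, were not called by edgeR, while DESeq2 called Dnah5 lower against normoxia (-0.89, adjusted p = 0.0288), and while all 5 were below 0 against hypoxia, 4 were below 0 against normoxia. Dnah5 had 57.4, 26.8 and 33.6 CPM in normoxia, 32.6, 43.5 and 35.2 CPM in hypoxia and 22.8, 26.2 and 14.2 CPM under PTH. Its PTH libraries were the lowest, although PTH replicate 4 and normoxia replicate 3 were close, and the log2 fold change against normoxia was -0.90 (SE 0.302, adjusted p = 0.176). Dnah9, which pairs with Dnah5 along the outer part of the cilium, had -0.77 (adjusted p = 0.192). Dnah11, the partner of Dnah5 near the base, had -0.12 against normoxia and -0.30 against hypoxia, and its lowest library was a normoxic one. Dnah8 and Dnah17 are outer arm chains known from sperm. Dnah8 was the member furthest above 0 against normoxia, with 4.64, 3.61 and 4.47 CPM in normoxia, 6.61, 4.24 and 5.97 CPM in hypoxia and 5.01, 5.87 and 3.72 CPM under PTH, and its groups overlapped. Dnah17 was near 1 CPM throughout and overlaps the far more abundant gene Pgs1 on the other strand.

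All 10 inner arm heavy chains, which shape the bend of the cilium, were below 0 in PTH against normoxia, with a median of -0.78 and a range from -1.2 to -0.26, and 9 had an unadjusted p under 0.05. None was called by edgeR, while DESeq2 called Dnah2, Dnah6, Dnah7a, Dnah7b, Dnah7c and Dnah10 lower against normoxia. Dnah2 had 19, 15.2 and 18.2 CPM in normoxia, 13, 16.5 and 15.7 CPM in hypoxia and 11.3, 13.2 and 10.7 CPM under PTH. The PTH libraries lay below all normoxic ones and overlapped the hypoxic ones only through PTH replicate 4. Its log2 fold change was -0.57 (SE 0.137, adjusted p = 0.0691) against normoxia. Dnah6, the most abundant heavy chain, had 61.7, 37.8 and 54.3 CPM in normoxia, 38.0, 53.9 and 53.7 CPM in hypoxia and 32.1, 35.6 and 25.5 CPM under PTH, so that the PTH libraries were lowest, and its log2 fold change was -0.72 (adjusted p = 0.116) against normoxia.

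Among the inner arm genes, Dnah7c and Dnah7a had the lowest log2 fold changes in hypoxia against normoxia. Dnah7a had 6.49, 5.23 and 4.47 CPM in normoxia, 3.59, 4.63 and 3.30 CPM in hypoxia and 3.14, 3.12 and 1.89 CPM under PTH. Hypoxia replicate 2 overlapped the normoxic libraries, and the PTH libraries were below all others. Dnah7a had a log2 fold change of -0.49 (SE 0.244, adjusted p = 0.484) in hypoxia against normoxia and -0.99 (SE 0.248, adjusted p = 0.0797) in PTH against normoxia. Dnah7c had -0.66 and -1.2 in these 2 comparisons (adjusted p = 0.495 and 0.113), and its normoxic mean rested on replicate 2 with 8.75 CPM beside 3.80 and 4.23 CPM. Dnah14 was below 1 CPM in 8 of 9 libraries and overlaps the abundant gene Lbr on the other strand.

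The 5 genes of the inner arm tether and anchor were all below 0 in both comparisons of PTH, with unadjusted p under 0.05 in each. None was called by edgeR, while DESeq2 called all 5 lower against normoxia, with adjusted p from 0.00511 to 0.0456. They comprise Cfap43 and Cfap44 of the tether that holds a heavy chain's motor domain, Cfap73 and Cfap100 of the modifier of inner arms complex, and Cfap57. Cfap73 had the lowest log2 fold change of any member, at -1.32 (SE 0.436, adjusted p = 0.161) against normoxia, but it had only 0.615 to 3.87 CPM and lies across from the abundant gene Ddx54. Cfap100 had 32.2, 23.1 and 25.9 CPM in normoxia, 20.9, 29.9 and 25.5 CPM in hypoxia and 12.9, 20 and 14.5 CPM under PTH. The PTH libraries of Cfap100 were the lowest, PTH replicate 4 being close to hypoxia replicate 1, and the log2 fold change was -0.78 (adjusted p = 0.08) against normoxia. Cfap43 was the most abundant Cfap gene by counts, at 104 ± 14.9 CPM (SD, n = 3) in normoxia, 91.9 ± 10.4 in hypoxia and 72.4 ± 13 under PTH.

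Radial spoke genes were below 0 in all 9 tested cases under PTH, with medians of -0.60 against hypoxia and -0.71 against normoxia. None was called by edgeR, while DESeq2 called Rsph1, Rsph9, Rsph10b, Cfap61 and Cfap206 lower against normoxia, and Cfap206 also against hypoxia. Cfap206, which docks a spoke and an inner arm to the doublet, had 27.2, 17.7 and 18.7 CPM in normoxia, 15.4, 21.8 and 24.2 CPM in hypoxia and 12.9, 11.8 and 9.65 CPM under PTH. The PTH libraries were below the other 6, with a log2 fold change of -0.89 (SE 0.211, adjusted p = 0.0691) against normoxia and -0.84 (adjusted p = 0.426) against hypoxia. Rsph1 had 39.7, 26.0 and 28.2 CPM in normoxia, 25.2, 33.5 and 33.0 CPM in hypoxia and 19.4, 23.1 and 16.3 CPM under PTH, again lowest under PTH, and its log2 fold change against normoxia was -0.68 (adjusted p = 0.109). Rsph3a and Rsph3b stood closer to 0, at -0.12 and -0.05 against normoxia, and Rsph3b had 25.8, 21.2 and 23.5 CPM in normoxia, 23.7, 25.5 and 27.6 CPM in hypoxia and 22.0, 23.7 and 22.6 CPM under PTH. Normoxia and PTH overlapped in both copies. Rsph14 had -0.53 in hypoxia and -0.77 under PTH against normoxia (adjusted p = 0.521 and 0.2), with a normoxic replicate 2 of 4.62 CPM beside 2.55 and 2.43 CPM.

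All 7 genes of the central apparatus, the projections around the central pair, were below 0 in both comparisons of PTH. None was called by edgeR, while DESeq2 called Cfap46, Cfap54, Cfap65 and Cfap74 lower against normoxia, and Cfap74 also against hypoxia. Cfap74 had 15.8, 12.7 and 17 CPM in normoxia, 15.7, 15.3 and 18.1 CPM in hypoxia and 12.3, 9.24 and 7.12 CPM under PTH. Its PTH libraries were the lowest, with PTH replicate 3 close to normoxia replicate 3. The log2 fold change of Cfap74 was -0.78 (SE 0.192, adjusted p = 0.426) against hypoxia and -0.67 (adjusted p = 0.118) against normoxia. With 1 library left out, the value against normoxia ran from -0.89 to -0.49, with adjusted p from 0.0446 to 0.307. The -0.89 and the 0.0446 both came without PTH replicate 3. Cfap54 had the lowest value against normoxia among these genes, at -0.94 (adjusted p = 0.126). Cfap99 was furthest above 0 of these genes in hypoxia against normoxia, at 0.28 (SE 0.320), through hypoxia replicate 2 with 2.99 CPM beside 1.39 and 1.86 CPM in the other hypoxia libraries.

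The 5 tektins, filament proteins bound to the doublets, divided. Tekt1 had 21.1, 14.8 and 14.1 CPM in normoxia, 11.3, 16.2 and 17.8 CPM in hypoxia and 9.88, 11.2 and 8.94 CPM under PTH, and Tekt4 had 11.4, 6.66 and 8.45 CPM, then 7.69, 10.6 and 10.6 CPM, then 5.84, 6.54 and 4.28 CPM. In both genes the PTH libraries were the lowest, narrowly so for Tekt1 against hypoxia replicate 1 and for Tekt4 against normoxia replicate 3. The log2 fold changes against normoxia were -0.73 for Tekt1 (SE 0.202, adjusted p = 0.105) and -0.67 for Tekt4 (SE 0.233, adjusted p = 0.181), and DESeq2 called Tekt1 against normoxia (adjusted p = 0.015). Tekt2 had -0.24 (SE 0.159) against normoxia and its groups overlapped. Tekt3 and Tekt5, which are best known from sperm, had at most 0.863 and 3.76 CPM and showed no order of the groups. The 5 members with no role assigned held Cfap58, Cfap70 and Cfap157, at -0.80, -0.73 and -0.63 against normoxia (DESeq2 called Cfap58 and Cfap157 lower), and Cfap36 and Cfap97, at 0.00 and -0.09. Cfap36 had 36.3, 31.5 and 32.0 CPM in normoxia, 31.2, 31.5 and 33.5 CPM in hypoxia and 34.6, 34.9 and 30.5 CPM under PTH, with full overlap of the groups.

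**Figure D3:**
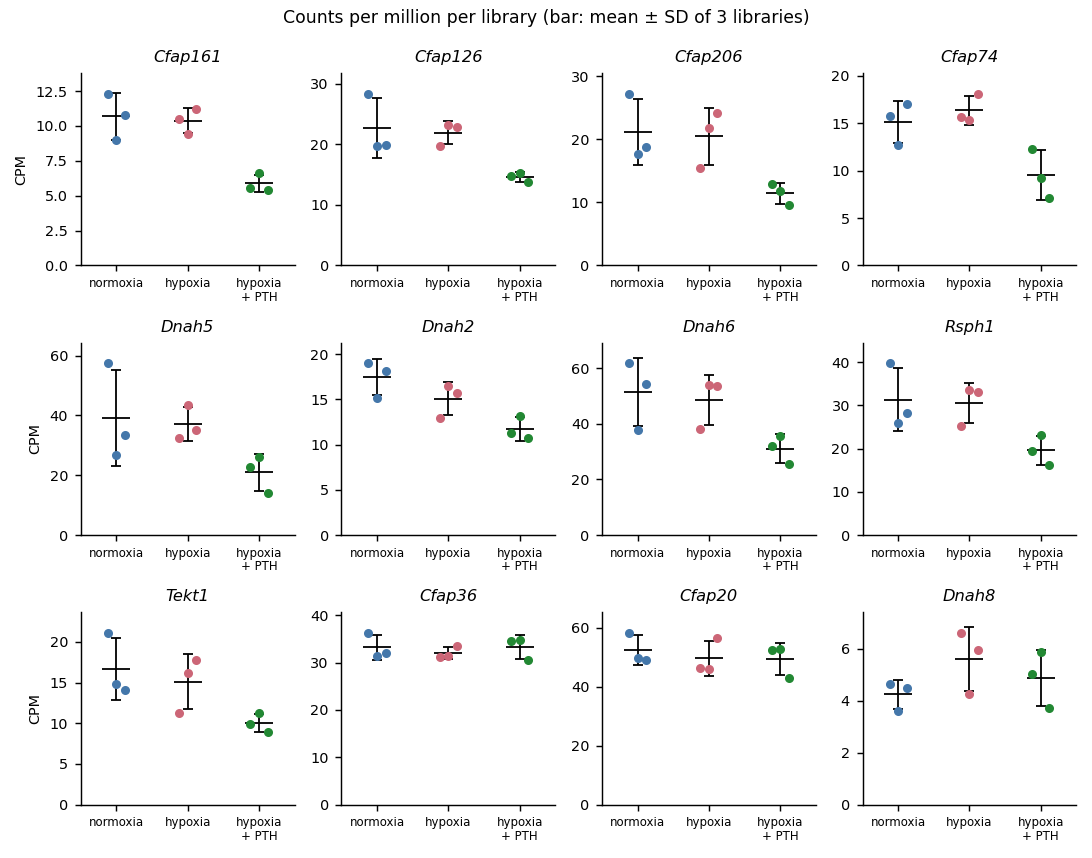
CPM of 12 members in each library (points), with the mean and SD of 3 libraries (bars), in normoxia, hypoxia and hypoxia with PTH. Cfap161 shows 5.44 to 6.61 CPM under PTH and 8.96 to 12.3 CPM elsewhere, whereas Cfap36, Cfap20 and Dnah8 overlap between the groups.

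The members moved together from library to library. Over the 9 libraries, the log2 CPM of a member correlated with the mean of the other members at a median Pearson r of 0.924, with 30 of 53 at 0.9 or more, a description in which all points share the same libraries and scaling. Only 6 members were under 0.5, namely Cfap36, Dnah14, Tekt3, Dnah17, Dnah8 and Tekt5. The mean of the members' centred log2 CPM was 0.58, -0.02 and 0.18 in normoxia, -0.12, 0.24 and 0.25 in hypoxia and -0.25, -0.23 and -0.63 under PTH. Normoxia replicate 2 was therefore highest and PTH replicate 5 lowest, and the PTH libraries were below the other 6 without overlap. PTH replicate 5 was the lowest library of 43 of 53 members and of 13.6% of all genes, and normoxia replicate 2 the highest of 41 members and of 14.6% of all genes. Without these 2 libraries, a choice made after seeing them, the members' median became -0.43 against hypoxia and -0.36 against normoxia, with 47 of 53 still below 0 in the latter, 10 members at an unadjusted p under 0.05 with a lower level (4.2% of all genes), and none called. Without normoxia replicate 2 alone the median of hypoxia against normoxia was 0.08 and only 13 of 53 members were below 0.

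**Figure D4:**
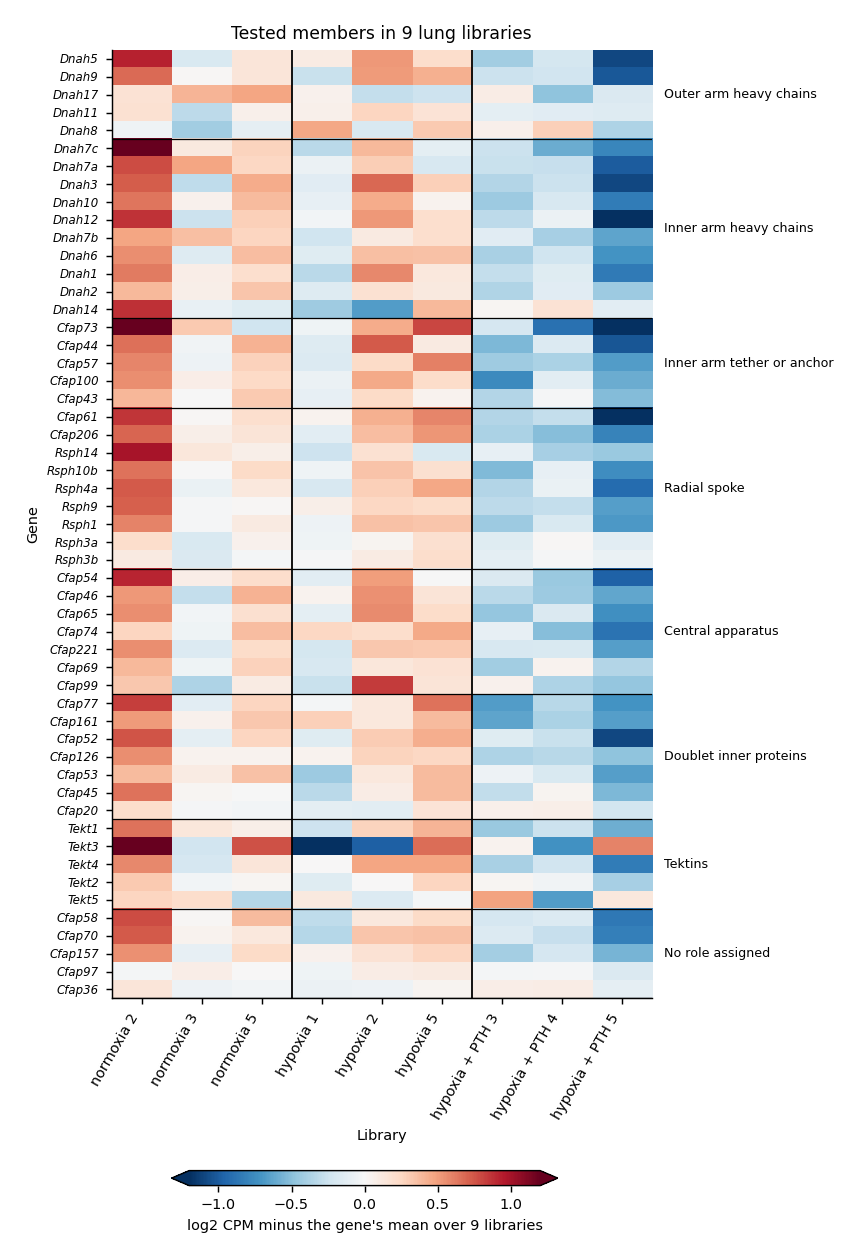
Log2 CPM of the 53 tested members minus each gene's mean over the 9 libraries, grouped by role and ordered within a role by the change of PTH against normoxia (red high, blue low, colours saturating beyond the ends of the scale). The columns of normoxia 2 (mean 0.58) and hypoxia + PTH 5 (mean -0.63) are the extremes of the 9, while rows such as Cfap36, Cfap97 and Rsph3b vary little.

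The axonemal intermediate chains outside the naming rule had values like those of the members. Dnaic1, of the outer arm, had 11.7, 8.91 and 11.8 CPM in normoxia, 6.16, 9.90 and 12.1 CPM in hypoxia and 5.34, 7.69 and 5.28 CPM under PTH. Its PTH libraries lay below the normoxic ones and overlapped hypoxia. The log2 fold changes against normoxia were -0.82 for Dnaic1, -0.85 for Dnaic2, -0.87 for Wdr63 and -0.88 for Wdr78, with adjusted p from 0.0702 to 0.174. Of 18 tested genes for arm docking, the nexin link and dynein preassembly, all were below 0 in PTH against normoxia and 1 was called lower, Zmynd10, a factor needed to assemble dynein arms in the cytoplasm. Zmynd10 had 18.2, 13.5 and 14.4 CPM in normoxia, 11.7, 16 and 14.1 CPM in hypoxia and 7.45, 8.57 and 7.26 CPM under PTH, with the PTH libraries below the other 6 and a log2 fold change of -0.99 (SE 0.158, adjusted p = 0.0193) against normoxia and -0.85 (adjusted p = 0.36) against hypoxia. Ccdc114 of the outer arm docking complex had the next smallest p, at -0.51 (adjusted p = 0.0885) against normoxia. Of the 5 central apparatus genes outside the rule, all were below 0 and none was called, with Spag16 at -0.83 (adjusted p = 0.135) and Spag17 at -0.85 (adjusted p = 0.157). Of the 4 dynein light chain genes none was called, and Dnali1 of the inner arm was at -0.86 (adjusted p = 0.0663) beside Dynlrb2 at -0.60 (adjusted p = 0.108).

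Of the 8 regulators of the multiciliated programme, 1 was called lower and none higher in PTH against normoxia. This was Myb, which acts early in multiciliated cell differentiation, with 18.9, 16.5 and 16.1 CPM in normoxia, 14.1, 16.3 and 14.5 CPM in hypoxia and 10.9, 11.2 and 7.53 CPM under PTH, and a log2 fold change of -0.80 (SE 0.156, adjusted p = 0.0346). Its PTH libraries were below the other 6. Foxj1, the forkhead factor that switches on motile cilium genes, had 166, 111 and 115 CPM in normoxia, 102, 116 and 106 CPM in hypoxia and 93.8, 76.1 and 63.1 CPM under PTH, with the PTH libraries again lowest, and was at -0.75 (SE 0.176, adjusted p = 0.0689) against normoxia and -0.48 (adjusted p = 0.476) against hypoxia. Trp73 was at -0.65 (adjusted p = 0.0607) and Rfx3 at -0.49 (adjusted p = 0.118) against normoxia, whereas Rfx2 was at 0.17 (adjusted p = 0.632). Gmnc, which starts the multiciliated programme, was the regulator with the lowest value in hypoxia against normoxia, at -0.76 (SE 0.272, adjusted p = 0.285), with 2.89, 2.31 and 3.36 CPM in normoxia and 1.11, 1.79 and 2.14 CPM in hypoxia, which did not overlap. The 5 genes outside the rule whose log2 CPM followed the members' mean most closely over the 9 libraries were Iqcg (Pearson r 0.996), Clic6 (0.993), Ttc39a (0.992), Drc3 (0.991) and Cdhr3 (0.991).

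Markers of ciliated cells that encode no member were also below 0 under PTH. Of 14 such genes, which include Foxj1, all 14 were below 0 in PTH against normoxia with a median of -0.74, and 2 were called lower, Ccdc113 at -0.94 (adjusted p = 0.0331) and Ccdc17 at -0.79 (adjusted p = 0.0418). Sec14l3, at -0.29, and Tppp3, at -0.05, the 2 with the highest CPM, were nearest to 0 and their groups overlapped. With the mean level of these 14 genes in each library as a covariate in the fit, the members' median became -0.04 in both comparisons of PTH, with 31 of 53 below 0 against normoxia, no member called and 12 genes called in all. The covariate was itself lowest in the 3 PTH libraries, at -0.31, -0.22 and -0.58, beside -0.08 to 0.64 in the others. The fit therefore cannot separate the group from the level of these markers, and the cause was not tested. Cfap161 had the lowest unadjusted p of the members against hypoxia and against normoxia in that fit, with log2 fold changes of -0.60 (adjusted p = 1) and -0.58 (SE 0.212, adjusted p = 0.619).

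Other airway and tissue markers also differed between libraries, and their part in the members' values was not tested. The summed level of 10 secretory airway genes was 33700 ± 3710 CPM in normoxia, 28900 ± 4950 in hypoxia and 22500 ± 727 under PTH (SD, n = 3). Most of each sum was Scgb1a1, with means of 28900, 24800 and 20200 CPM in these groups. All 10 genes were below 0 in PTH against normoxia, and Cyp2f2 of club cells was called lower at -0.74 (SE 0.137, adjusted p = 0.0304). Large airway genes differed widely between libraries of the same group. Bpifa1, a secreted protein of the upper airway, was at 2150 CPM in the second normoxia library, at 1050 and 368 CPM in hypoxia replicates 2 and 5, and 0.213 to 88.0 CPM in the other 6 libraries. The summed level of 4 basal cell genes likewise reached 24.9 and 26.6 CPM in the second replicates of normoxia and hypoxia. It was 3.47 CPM in the fifth of hypoxia and 0.425 to 2.43 CPM elsewhere. Krt5 was at 0 in all 3 PTH libraries and in normoxia replicates 3 and 5. Krt15 had 12.9 and 18.3 CPM in the second replicates of normoxia and hypoxia, and 0.0237 to 0.647 CPM under PTH. Krt14 was highest in hypoxia replicate 2 at 1.27 CPM, with 0.899 CPM in PTH replicate 5 and 0.751 CPM in normoxia replicate 2. Muc5b of the secretory list was highest in normoxia replicate 2 at 200 CPM. It had 97.8 CPM in PTH replicate 4, beside 91.4 and 98.5 CPM in hypoxia replicates 2 and 5. Bpifb1 had 33.1 CPM in PTH replicate 4, beside 117 and 115 CPM in those hypoxia libraries and 334 CPM in normoxia replicate 2. The 3 libraries highest in Bpifa1 and in the basal sum were all outside the PTH group. Without these 3 libraries, also chosen after their values were seen, the members' median was -0.50 in PTH against normoxia, with 47 of 53 below 0 and none called, and -0.22 against the 1 hypoxia library left, which is assumed to vary like the other groups. Cfap161 was then at -0.73 (adjusted p = 0.151) against normoxia.

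The part of the remaining lists in the members' values was likewise not tested. Genes of heart muscle and fat summed to 37 CPM in the library PTH 5 and to 1170 CPM in hypoxia 5, and the 3 groups overlapped. The 6 alveolar genes summed to 21800, 24500 and 20300 CPM in normoxia, 20200, 20000 and 19400 CPM in hypoxia and 23800, 23900 and 26600 CPM under PTH. Against hypoxia all 6 were above 0, the opposite direction to most members, with a median of 0.30, and none was called by edgeR. In 5 of them the PTH libraries lay above the hypoxia libraries without overlap, as in 1297 of the 19640 genes tested. Genes of the circadian output were at 1420 to 1900 CPM in normoxia replicates 2 and 3 and hypoxia replicates 1 and 2, and at 384 to 661 CPM in normoxia replicate 5, hypoxia replicate 5 and all 3 PTH libraries. In normoxia replicate 5 and hypoxia replicate 5 the members' mean stood at 0.18 and 0.25, among the upper values, and in the PTH libraries at -0.25, -0.23 and -0.63. No PTH library had a high circadian output, so that its level and PTH cannot be told apart within that group. All 5 male germ cell markers (Prm1, Prm2, Tnp1, Acrv1 and Odf1) had 0 counts in every library. The 3 neuroendocrine genes had 1.51 to 5.44 CPM in sum, and the 8 cartilage genes of the large airways 0.308 to 1.05 CPM.

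**Figure D5:**
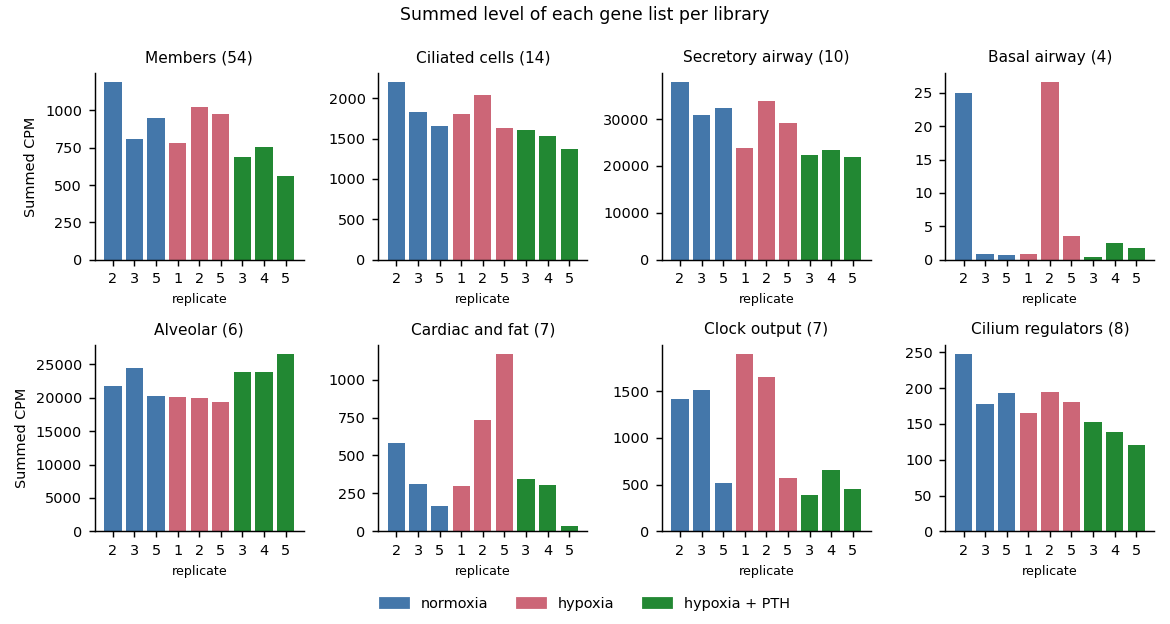
Summed CPM of the 54 members and of 7 gene lists in each library, with colours for the 3 groups and replicate numbers below the bars. The members are lowest in PTH 5 (562 CPM) and highest in normoxia 2 (1190 CPM). Basal airway genes are high in normoxia 2 and hypoxia 2, and circadian output genes are low in normoxia 5, hypoxia 5 and the 3 PTH libraries.

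Promoter sequences of RefSeq (GRCm38.p6) were found for 45 of the 54 members and were searched on both strands over the 250 bases before each start, genes with several starts being counted once. The X-box, a site of RFX factors, was searched as GTNNCC, then 3 bases of any kind, then GNAAC. It occurred in 5 of the 45 members (11.1%) and in 2.61% of the 13227 tested genes with a promoter there. GTTGCC, the RFX core, occurred in 12 of 45 members (26.7%) and in 12.5% of those genes, and GTAAACA, a forkhead core bound by factors such as Foxj1, in 4 of 45 members (8.89%) and 2.92%. The core overlaps the X-box in Cfap44. These matches are descriptions of the letters, not shown binding sites, and were looked at after the values were known. The X-box matches of 3 members with log2 fold changes of -0.89 (Cfap206), -0.90 (Cfap44) and -0.51 (Cfap45) against normoxia are given here, in capitals, with up to 15 flanking bases on each side, written towards the gene. They lie at chr4:34730207-34730244 on the minus strand, chr16:44394757-44394798 on the plus strand and chr1:172521096-172521129 on the plus strand. Each begins within 27 bases of the RefSeq start, whereas the X-box matches of Tekt4 and Dnah17 begin 160 and 159 bases before it. The deposited table starts Cfap45 at 172520801 and Dnah17 at 118130634, so that the matches of these genes lie inside the gene as that table annotates it.
Cfap206: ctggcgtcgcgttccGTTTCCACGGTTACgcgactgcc
Cfap44: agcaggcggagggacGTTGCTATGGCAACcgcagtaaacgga
Cfap45: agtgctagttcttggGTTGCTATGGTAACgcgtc

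Genes on the opposite strand overlap several members, and whether the counting used the strand is not given. The overlapping gene had more counts than the member for Cfap61 (Crnkl1), Cfap73 (Ddx54), Cfap97 (Snx25), Cfap100 (Zxdc), Cfap43 (Gsto1), Rsph9 (Mrps18a), Rsph14 (Gnaz), Dnah14 (Lbr) and Dnah17 (Pgs1). The values of these 9 members are less certain for that reason. Some members also overlap a gene on their own strand, which use of the strand would not separate. The larger of these were Pms2 for Rsph10b (55.5% of the member's mean CPM), Gm13394 for Cfap77 (44%) and Gm4459 for Cfap46 (16.7%). No overlapping gene was found for Cfap161, Cfap126, Cfap206, Dnah5 or Rsph1.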

How the data were processed

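Lung RNA of 9 samples in 3 groups was sequenced, and each library held 40234030 to 58391086 counts. The authors deposited estimated counts per gene and log2 TPM, in which values at or under 1 TPM were written as 0. Per the submitters' processing notes, Trimmomatic 0.39, STAR 2.7.9a and mm10 were used. For the counting tool, its use of strand and its annotation, nothing is stated: each is not given in the sources used here. Estimated counts were rounded to whole numbers and filtered with filterByExpr (minimum count 10, minimum total 15), and all 9 libraries entered 1 model in edgeR 4.0.16 (TMM scaling, robust quasi-likelihood F test, 6 residual degrees of freedom) under R 4.3.3. P-values were adjusted by Benjamini-Hochberg over the 19640 genes, with a threshold of 0.05. DESeq2 1.42.0 was an alternative. The scripts were tested on simulated data. The members and gene lists were chosen with earlier results of these data known. Members named by rule were those called, the 4 with the smallest p in each direction of each comparison, and the 2 with the highest TPM in each family, and from the lists of cilium genes outside the rule the called genes and the 2 with the smallest p. Other genes were chosen after their values were seen. The 3 comparisons share libraries pairwise and are not independent.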

Additional observations from a re-analysis of the deposited data

How the results depend on the processing

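Genes called in hypoxia against normoxia (112) numbered 791 by DESeq2, 198 with no filter, 324 at a threshold of 0.1, 8 with a replicate block, 57 without 2 libraries (normoxia 2 and PTH 5), 13 without 3 (normoxia 2, hypoxia 2 and hypoxia 5) and 50 to 158 with 1 library left out. For PTH against hypoxia (0), DESeq2 called 156 and leaving 1 library out gave 0 to 1. For PTH against normoxia (341) the counts were 1417 by DESeq2, 833 at 0.1, 17 with the replicate block, 12 with the ciliated marker covariate, 42 and 62 without the 2 or the 3 libraries, and 81 to 359 with 1 left out. Members called were 4 by DESeq2 against hypoxia (Cfap126, Cfap161, Cfap206 and Cfap74). Against normoxia they were 27 by DESeq2, 2 with no filter, 8 at 0.1, 0 in the fit of 6 samples, with the block, with the covariate and without the 2 or the 3 libraries, and 0 to 1 with 1 left out. The members' median in hypoxia against normoxia turned to 0.04 with the covariate and 0.08 without the 2 libraries, and ran from -0.24 to 0.08 with 1 left out. The median of PTH against hypoxia moved to -0.04 with the covariate and -0.22 without the 3 libraries (-0.70 to -0.43 with 1 left out), and that of PTH against normoxia to -0.04 and, without the 2 libraries, -0.36 (-0.83 to -0.51). With the replicate block the medians were -0.01, -0.60 and -0.68, and Cfap161 was at -0.90 with an adjusted p of 0.229. The replicate numbers were not treated as pairs, since the correlations of the deviations of same-numbered samples ran from -0.0969 to 0.143. The cause of these changes was not tested.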
